A study of Mus musculus with 12 samples.

Results

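EGR factors and NAB corepressors were followed across 12 SVR tumors as 6 genes, Egr1, Egr2, Egr3, Egr4, Nab1 and Nab2, chosen by their gene names among 54232 genes in the table. SVR is a mouse angiosarcoma cell line, labelled as strain C57BL/6, and was grown under the skin of athymic nude mice. Groups of 3 tumors had received vehicle (control), trametinib at 1 mg/kg, cediranib at 3 mg/kg, or both drugs at these doses (combination), each by daily gavage after the tumors had established. Trametinib inhibits MEK, the kinase that activates ERK, and cediranib inhibits the VEGF receptors. Whole-tumor RNA was enriched with exome probes, a method the study chose because the RNA was degraded, and reads were counted per gene. A level is given as CPM, a count relative to its library's total after TMM scaling, which adjusts the total for composition, and n is 3 tumors in each group. The tumors all derive from 1 cell line, and tumor cells, stroma and overlying skin are all of mouse origin, so their transcripts are not separated. The labels give neither the age of the mice nor the time on treatment of these tumors, the study's methods give the age of the mice as a range of weeks for all of them, and the p-values measure the spread between these tumors only.

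EGR proteins are zinc finger transcription factors and classic immediate early gene products. When ERK is active it phosphorylates ternary complex factors of the ETS family, which sit with serum response factor (SRF) at CArG boxes beside the EGR genes and switch them on within minutes. The proteins then bind GC-rich sites in genes for growth factors, proteases and coagulation factors, and EGR1 is well known as such a switch in endothelium. NAB1 and NAB2 bind an inhibitory domain of EGR1, EGR2 and EGR3 and recruit a histone deacetylase complex, and Nab2 is itself induced by EGR proteins in several cell types.

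RefSeq promoter windows of GRCm38.p6, each from 250 bases before to 50 bases after a start site, were matched for Egr2 with 5 windows and for Egr4, Nab1 and Nab2 with 1 window each. These windows were searched on both strands for the CArG box, the ETS core CCGGAA, the cyclic AMP response element TGACGTCA and its first 6 bases TGACGT, and the EGR sites GCGTGGGCG and GCGGGGGCG. Egr2 (ENSMUSG00000037868) is on chromosome 10 of GRCm38 from 67535475 to 67540381. In its window whose start site is at 67537566, a CArG box lay at -72 to -63 relative to that site and CCGGAA began at -131, -129 and -48, the first pair being the overlapping strands of 1 palindrome. For the start site at 67537869, another CArG box lay at -72 to -63 with TGACGT on the reverse strand at -56 to -51. The window at 67535499 held none of the motifs. Both stretches are shown because Egr2 fell with trametinib, and capitals mark the CArG box, CCGGAA and, in the second, TGACGT. They lie on the plus strand, outside the GENCODE M21 exons of Egr2, at chr10:67537426-67537535 and chr10:67537759-67537838.
Egr2, upstream of 67537566: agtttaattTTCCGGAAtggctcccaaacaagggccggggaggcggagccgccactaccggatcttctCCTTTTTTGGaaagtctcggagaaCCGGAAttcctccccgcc
Egr2, upstream of 67537869: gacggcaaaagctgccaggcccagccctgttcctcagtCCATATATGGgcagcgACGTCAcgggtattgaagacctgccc

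Nab1 (ENSMUSG00000002881), a minus strand gene, is on chromosome 1 from 52457294 to 52500300. Its window, with the start site at 52500448, held the EGR site GCGTGGGCG at -141 to -133 on the reverse strand and at -109 to -101 on the gene's own strand. It also held GCGGGGGCG at -38 to -30. The first 2 matches are shown, with the EGR site in capitals, because Nab1 kept a level between 33.9 and 56.9 CPM in every tumor, with or without high Egr1. They are on the minus strand at chr1:52500571-52500599 and chr1:52500539-52500567, beyond the gene's end in the table but within an exon of Nab1 in GENCODE M21, whose gene model extends further.
Nab1, distal match: gccccgcggcCGCCCACGCcgggatctgc
Nab1, proximal match: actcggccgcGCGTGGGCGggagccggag

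Egr4 (ENSMUSG00000071341) is on chromosome 6 from 85511121 to 85513589, and Nab2 (ENSMUSG00000025402) on chromosome 10 from 127660918 to 127668568, both on the minus strand. The Egr4 window held TGACGT from -178 and from -110 and no other of these motifs, and the Nab2 window, with its start site at 127666703, held none of them. That start site lies inside the span of Nab2. Its 5' end on the minus strand is at 127668568, and no window there was searched, so the promoter at that end is not described. Among 32851 promoter windows of the same length, a CArG box was found in 1.63%, CCGGAA in 14.9%, TGACGT in 7.51%, TGACGTCA in 1.79%, GCGTGGGCG in 0.612% and GCGGGGGCG in 2.91%. The matches describe letters in these windows, and binding was not measured.

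The libraries held 9478865 to 11666094 counts, and a count of 0 allows a level of up to 0.257 to 0.316 CPM (3 counts, counting error only). Of 29102 genes with a count, 12897 passed the filter on low counts and were tested, including 5 of the 6 members. Markers of other cell types differed between the tumors. The summed level of 8 epidermal keratins was 4.65, 9.02 and 730 CPM in control, the highest in control replicate 1, 1.34 to 7.54 CPM with trametinib, 5.96, 2284 and 4501 CPM with cediranib, and 3873 to 6229 CPM with the combination. The sum of 12 endothelial genes, which mark vessels and can also be expressed by SVR cells, was 212 to 448 CPM in control, 53.1 to 114 CPM with trametinib, 127 to 337 CPM with cediranib and 36.0 to 88.3 CPM with the combination. The defining endothelial genes Cdh5 and Tie1 were detected in every tumor, whereas 1 of the 12 genes had no count in any trametinib tumor. The sum of 10 macrophage genes was 392 to 691 CPM in control, 306 to 437 CPM with trametinib, 285 to 447 CPM with cediranib and 177 to 312 CPM with the combination, and that of 8 fibroblast genes was highest with trametinib, at 8855 to 37110 CPM beside 2224 to 21144 CPM in control. The sum of 8 skeletal muscle genes ran from 5.25 to 23517 CPM over the 12 tumors, and 7 T cell genes summed to at most 8.08 CPM.

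Compared to control, 3 of the 5 tested members were lower in trametinib treated tumors, Egr1, Egr2 and Egr3, and neither NAB gene passed the test. Egr1 (ENSMUSG00000038418, chromosome 18 from 34859823 to 34864956, plus strand) was at 87.3, 86.2 and 88.1 CPM in control tumors and at 3.18, 3.26 and 5.11 CPM with trametinib. Every treated tumor was far below every control tumor, and the control tumors differed from each other by less than 2 CPM. The log2 fold change of Egr1 was -4.49 (standard error 0.23, 95% interval -4.98 to -3.99), a 22.4-fold lower level, and the Benjamini-Hochberg adjusted p was 2.15e-06 (edgeR quasi-likelihood). By this p, Egr1 ranked first of all 12897 genes tested.

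Egr2, best known for myelination and for hindbrain patterning, was at 40.9, 48.3 and 55.3 CPM in control and at 4.72, 4.89 and 3.93 CPM with trametinib. The groups were apart, with little spread among the treated tumors. Its log2 fold change was -3.42 (standard error 0.42), a 10.7-fold lower level, with an edgeR adjusted p of 0.000778. Egr3 (ENSMUSG00000033730, chromosome 14 from 70077203 to 70079955, plus strand), which acts in muscle spindles and lymphocytes and downstream of VEGF in endothelium, was at 51.2, 96.0 and 30.9 CPM in control and at 14.3, 12.3 and 5.02 CPM with trametinib. Egr3 varied most between control tumors, but its lowest control value was still above its highest treated value. It fell by 2.50 on the log2 scale (standard error 0.47), 5.65-fold, with an edgeR adjusted p of 0.00892. In bulk RNA, fewer cells of a type and less RNA per cell cannot be told apart. Of the 10 endothelial genes tested, 5 were also called lower with trametinib and 0 higher. With the mean of the tested endothelial genes as a covariate, chosen after seeing the data, Egr1 and Egr2 kept their calls and the edgeR adjusted p of Egr3 was 0.0642. This mean was lower in every trametinib tumor than in every control tumor, so that it cannot be told apart from treatment. Over 18 alternative settings the log2 fold change of Egr3 was -2.95 to -1.97.

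A gene is called here where its adjusted p is under 0.05 and its log2 fold change is 1.5 or more in size, the limits used in the study. By that rule 1.43% of all genes tested were lower and 0.977% higher in trametinib treated tumors, against 3 lower and 0 higher of the 5 members.

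**Figure D1:**
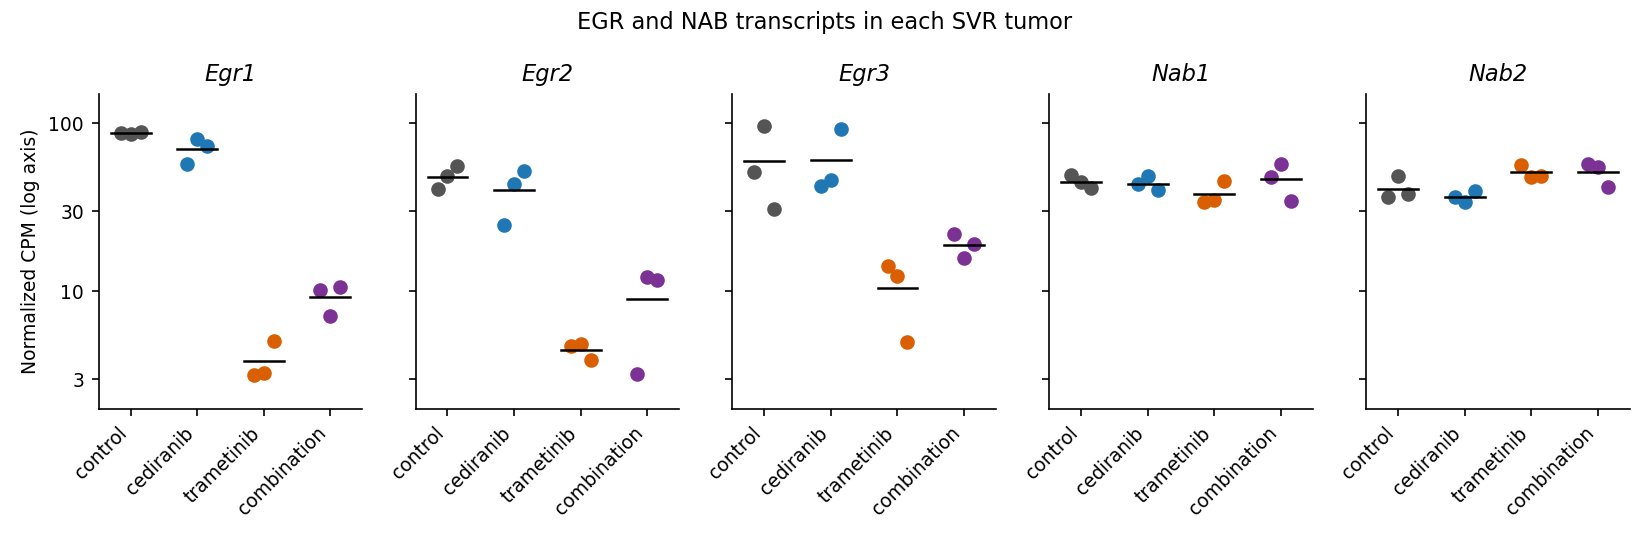
Normalized CPM on a log axis for the 5 tested members in each of the 12 tumors, by treatment. Each point is a tumor and each bar the mean of 3. Egr1, Egr2 and Egr3 lie lower in all 6 tumors that received trametinib than in the 6 that did not, and the 2 NAB genes overlap between these sets. The share of all genes tested that lie apart in this way is not given.

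In combination treated tumors the same 3 EGR genes were called lower than in control, and 0 members were called higher. The share of all genes tested was 1.71% lower and 1.91% higher. Egr1 was at 10.2, 7.17 and 10.6 CPM, so every combination tumor was below the control tumors but above the trametinib tumors. Its log2 fold change against control was -3.23 (standard error 0.21), 9.35-fold, with an edgeR adjusted p of 3.9e-05, again the first of all genes by p. Egr2 was at 3.23, 12.2 and 11.7 CPM. Combination replicate 1 had the lowest Egr2 of all 12 tumors, with 32 counts, while the other 2 were above every trametinib tumor. The log2 fold change of Egr2 was -2.41 (standard error 0.40), with an edgeR adjusted p of 0.00537. Egr3 was at 22.0, 15.8 and 19.0 CPM, close together and below every control tumor. Its log2 fold change of -1.65 (standard error 0.45) had an edgeR adjusted p of 0.0405, near the threshold.

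The Egr3 call in the combination depended on the setting. It was lost in 10 of 18 alternatives, among them the omission of control replicate 1 (edgeR adjusted p 0.0513), of control replicate 2 (0.152) or of any 1 combination tumor (0.087 to 0.122), and the fit with the replicate number as a block (0.0714). The keratin sum was higher in every combination tumor than in every control tumor. With a score of epidermal genes as a covariate, which was likewise higher in every combination tumor than in every control tumor, Egr1 remained called, whereas the edgeR adjusted p rose to 0.17 for Egr2 and 0.351 for Egr3. Over all 18 alternatives the log2 fold change against control was -2.67 to -2.01 for Egr2 and -2.21 to -1.12 for Egr3. With the endothelial covariate, chosen after seeing the data, Egr1 was again the only member called, and Egr2 had an edgeR adjusted p of 0.23. The endothelial score was lower in every combination tumor than in every control tumor, and neither score can be told apart from treatment.

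No member passed the test for cediranib alone against control. With edgeR's quasi-likelihood test 0 of the 5 were called, as were 0% of all genes in either direction, and 0 members had an unadjusted p under 0.05 against 4.32% of all genes. The edgeR likelihood ratio test and DESeq2 also called 0 members, out of 14 and 9 genes called. Egr1 was at 57.3, 80.7 and 73.0 CPM, each tumor below the 3 control tumors. The difference was small, with a log2 fold change of -0.31 (95% interval -0.72 to 0.10) and an edgeR adjusted p of 0.999. Egr2 was at 25.0, 43.4 and 51.8 CPM and overlapped control, with a log2 fold change of -0.27 (95% interval -1.08 to 0.55). Egr3 was at 42.1, 45.9 and 92.9 CPM, and its log2 fold change of 0.02 had an interval from -0.93 to 0.97.

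The combination was then compared with trametinib alone, to see whether adding cediranib changed the EGR level. All 3 EGR genes had higher means in the combination, but 0 members were called, against 0.535% of all genes higher and 0.14% lower. Egr1 was 9.32 ± 1.87 CPM in the combination and 3.85 ± 1.09 CPM with trametinib (mean ± SD, n = 3). Its tumors did not overlap, and Egr1 was 2.40-fold higher, with a log2 fold change of 1.26 (standard error 0.22, 95% interval 0.78 to 1.74). Its edgeR adjusted p of 0.028 passed 0.05, so that it missed the call by its size alone. Without a minimum size, 1 of the 5 members was higher, where 0.721% of all genes were higher and 0.248% lower.

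Egr2 differed by 1.01 on the log2 scale (standard error 0.41), with an edgeR adjusted p of 0.231 and overlapping tumors. Egr3 had no overlap between the groups, at 5.02 to 14.3 CPM with trametinib and 15.8 to 22.0 CPM in the combination. Its log2 fold change of 0.85 (95% interval -0.16 to 1.86) had an edgeR adjusted p of 0.363. Leaving out single tumors moved the edgeR adjusted p of Egr1 between 0.0462 and 0.111, and with the epidermal covariate it was 0.603. Over all 18 alternatives the log2 fold change of Egr1 was 1.13 to 1.68. The keratin sum also separated these groups, so that its part and that of the added drug cannot be told apart.

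An interaction contrast took the difference between combination and trametinib minus the difference between cediranib and control. A positive value means that the 2 drugs together lowered a gene less than the sum of their separate log2 effects. The interaction of Egr1 was 1.57 (standard error 0.29, 95% interval 0.94 to 2.20), with an edgeR adjusted p of 0.246. Egr2 had 1.27 (standard error 0.56) and Egr3 0.83 (standard error 0.63), with edgeR adjusted p of 0.695 and 0.828. Under edgeR's quasi-likelihood test 0 members and 0% of genes were called, and 7.05% of genes had an unadjusted p under 0.05, including 2 members, Egr1 and Egr2. Egr1 was called by DESeq2 (adjusted p 0.000717), by the edgeR likelihood ratio test (0.0025) and without the low-count filter (4.4e-06), where 27, 28 and 261 genes were called. The result for Egr1 therefore depends on the tool and the filter.

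Against cediranib, both groups that received trametinib again had lower Egr1, Egr2 and Egr3. Trametinib had log2 fold changes of -4.18, -3.15 and -2.52, and edgeR adjusted p of 4.41e-06, 0.00109 and 0.00752. Of all genes tested, 1.97% were called lower and 1.52% higher. The combination had log2 fold changes of -2.92, -2.14 and -1.67 against cediranib, with edgeR adjusted p of 0.00011, 0.00888 and 0.0451. Here 1.16% of all genes were called lower and 1.29% higher. In both comparisons Egr1 had the smallest p of all genes tested. These comparisons share the trametinib or combination tumors with those against control and are not independent of them. The Egr3 call of the combination was lost when any 1 of the 6 tumors was left out (edgeR adjusted p 0.0603 to 0.151). A fit without control replicate 1 and cediranib replicates 1 and 3, the trametinib-free tumors with the most keratin counts, was also made. It left cediranib replicate 2 alone in its group, so no p-value is given for it. With the endothelial score the Egr2 call of the combination was lost (edgeR adjusted p 0.0969). With the epidermal score the Egr3 call of trametinib was lost (edgeR adjusted p 0.172). Over all 18 alternatives the log2 fold change against cediranib was -2.40 to -1.73 for Egr2 with the combination. For Egr3 with trametinib it was -2.81 to -2.07.

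**Figure D2:**
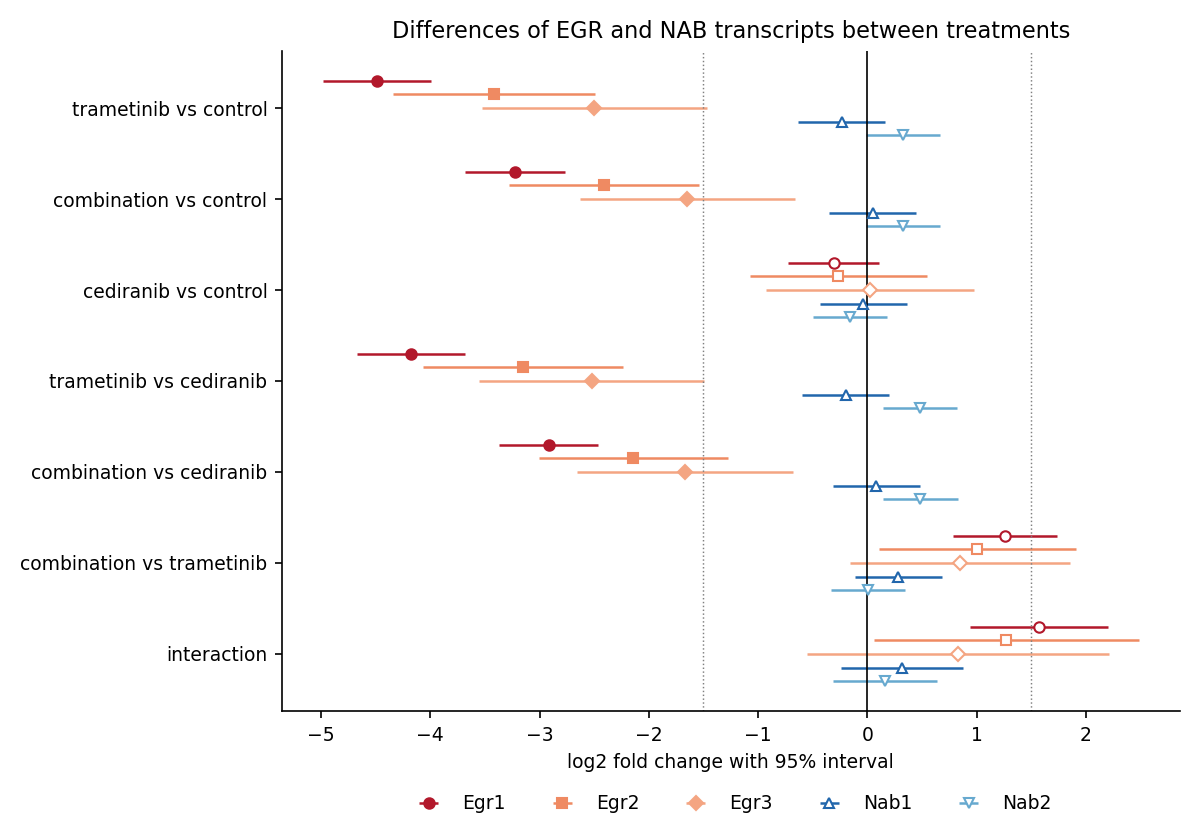
Log2 fold changes of the 5 tested members in 6 comparisons and the interaction, with 95% intervals. Filled points are called, open points are not, and dotted lines mark a change of 1.5 in either direction. Egr1, Egr2 and Egr3 are called in the 4 comparisons of a trametinib-treated with a trametinib-free group, and the points of Nab1 and Nab2 stay within 0.5 of zero throughout, though their intervals reach further.

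Egr4, a family member of neurons that lacks the NAB-binding domain, had 1 count in all 12 libraries, in cediranib replicate 3, or 0.0957 CPM. In the other 11 tumors a level up to the limit of 0 counts is not excluded. With 1 count in all, an exact permutation test gives p = 1 wherever that count falls, so it carries no information. No change of Egr4 was detectable at this depth.

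Neither corepressor gene was called in any comparison. Nab1 was at 48.9, 44.5 and 41.2 CPM in control, 33.9, 35.0 and 45.4 CPM with trametinib, 43.3, 48.2 and 39.8 CPM with cediranib, and 47.7, 56.9 and 34.5 CPM with the combination. Each treated group overlapped control. For trametinib against control its log2 fold change was -0.24 (95% interval -0.63 to 0.16, edgeR adjusted p 0.529), and for the combination it was 0.05 (-0.35 to 0.44, edgeR adjusted p 0.898). Over the 6 comparisons the sign of the Nab1 difference varied, and with the endothelial covariate the combination value was -0.31.

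Nab2 was at 36.2, 48.4 and 37.7 CPM in control and 36.4, 33.8 and 39.5 CPM with cediranib. With trametinib it was at 56.4, 47.9 and 48.7 CPM, and with the combination at 57.3, 54.6 and 41.7 CPM. Most tumors that received trametinib were thus above most that did not, the opposite side from Egr1. Control replicate 2 lay between the trametinib tumors, so the groups overlapped. The log2 fold change of Nab2 was 0.32 for trametinib against control (95% interval -0.02 to 0.66, edgeR adjusted p 0.266) and 0.33 for the combination (-0.01 to 0.67, edgeR adjusted p 0.199). Against cediranib it was 0.48 for both, without overlap, and edgeR adjusted p were 0.0789 and 0.0824. None of these passed, and all of the intervals exclude a fall of the size seen for any of Egr1, Egr2 and Egr3.

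The Nab2 count has a further limit. On the opposite strand Nab2 overlaps the antisense gene Gm16229 by 1050 exon bases, Nemp1 by 151 and Stat6 by 40 (GENCODE M21), with a strand setting of the counting not given in the sources used here. Reads of Nab2 and Gm16229 therefore cannot be told apart with certainty. Gm16229 was at 19.1 to 26.3 CPM in control, 23.6 to 29.9 CPM with trametinib, 18.3 to 21.0 CPM with cediranib and 21.8 to 28.4 CPM with the combination. It was the gene whose pattern was most like Nab2 among all genes tested, with a Pearson r of 0.975 over the 12 tumors and 0.958 after the group means were removed, a description that shares libraries and possibly reads. Its log2 fold change for trametinib against control was 0.27, close to that of Nab2, with an edgeR adjusted p of 0.385.

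**Figure D3:**
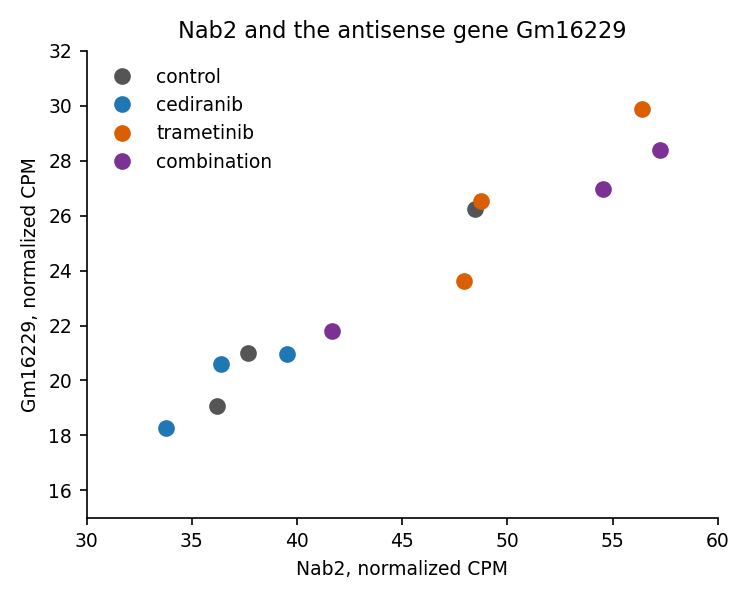
Normalized CPM of Nab2 and of the overlapping antisense gene Gm16229, 1 point per tumor, coloured by treatment; both axes are linear and start above zero. The 12 points lie close to a line, with Gm16229 between 18.3 and 29.9 CPM and Nab2 between 33.8 and 57.3 CPM.

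Levels of different genes were set side by side per kilobase of gene length, on which exome probes also act. In control Egr1 was highest with a mean of 19.4 CPM per kb, followed by Egr2 at 14.2, Nab2 at 13.9, Egr3 at 13.5 and Nab1 at 10.9 CPM per kb. Egr1 was above Egr2 in all 3 control tumors, whereas the neighbours after it overlapped. With trametinib both NAB genes came before the EGR genes, with mean levels of 17.3 CPM per kb for Nab2, 9.29 for Nab1, 2.39 for Egr3, 1.33 for Egr2 and 0.858 for Egr1. Egr1, the most abundant EGR transcript in control by its mean, though below Egr3 in control replicate 2 (19.2 against 21.8 CPM per kb), became the least abundant of the 3 by its mean, and of the neighbours Egr3 and Egr2 overlapped while the others did not. In the combination the means were 17.4 CPM per kb for Nab2, 11.3 for Nab1, 4.30 for Egr3, 2.66 for Egr2 and 2.08 for Egr1, and of the neighbours Egr2 and Egr1 overlapped. With cediranib they were 15.7 for Egr1, 13.7 for Egr3, 12.4 for Nab2, 11.8 for Egr2 and 10.7 for Nab1, and each pair of neighbours overlapped.

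Summed over Egr1, Egr2 and Egr3, the EGR level was 29.7 to 55.2 CPM per kb in the 6 trametinib-free tumors and 3.44 to 10.1 CPM per kb in the 6 that received trametinib. The sum of Nab1 and Nab2 was 22.9 to 27.3 CPM per kb in the first and 22.6 to 32.4 CPM per kb in the second. The ratio of EGR to NAB transcripts was thus 1.29 to 2.27 without trametinib and 0.124 to 0.448 with it. The make-up of the EGR sum differed less clearly. Egr1 made up 30.9 to 45.8% of it without trametinib and 13.3 to 33.1% with it, and Egr3 made up 16.3 to 40.1% and 33.2 to 60.8%, so that both ranges overlapped.

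**Figure D4:**
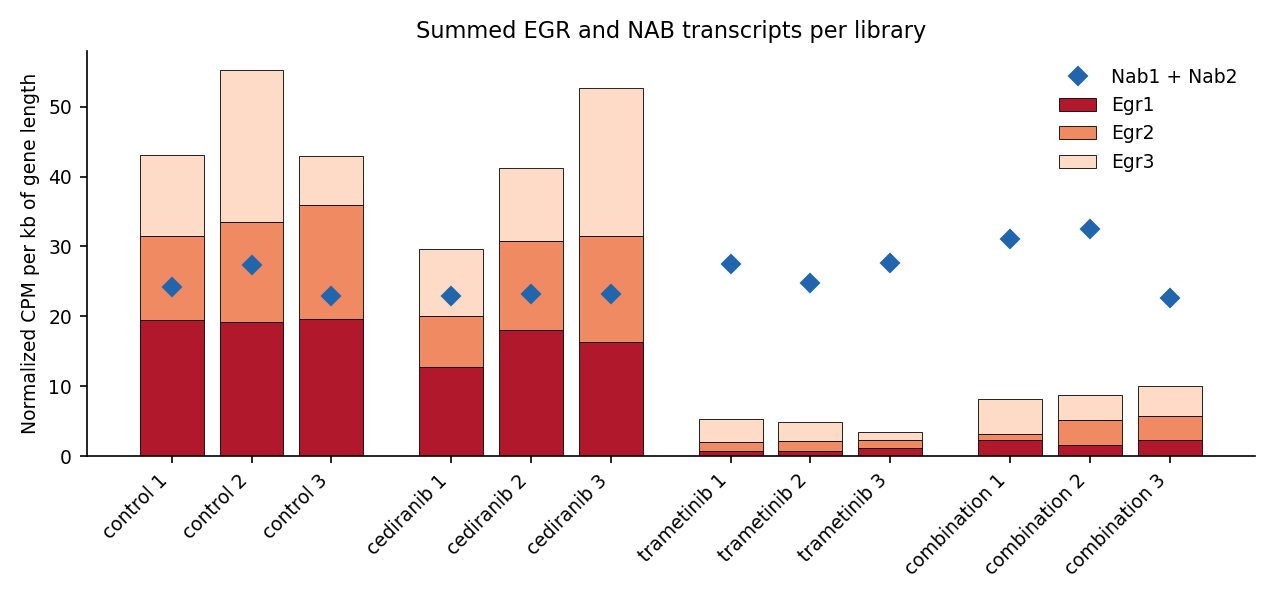
Stacked bars of normalized CPM per kb of gene length for Egr1, Egr2 and Egr3 in each tumor, from a baseline of 0, with the sum of Nab1 and Nab2 as a diamond. The EGR sum is above the NAB sum in the 6 trametinib-free tumors and below it in the 6 that received trametinib.

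Genes upstream of EGR transcription gave no calls. Of 7 genes in the table for SRF, its cofactors and the ternary complex factors 6 were tested, and 0 were called in any comparison. At the adjusted p alone, 1 of the 6 was lower with trametinib, where 3.47% of all genes were lower and 2.64% higher, and 3 were lower with the combination, where 5.13% were lower and 4.85% higher. Elk3, a ternary complex factor, averaged 227 CPM in control, 141 CPM with trametinib and 132 CPM with the combination, with log2 fold changes of -0.69 and -0.79 (edgeR adjusted p 0.00706 and 0.00433). Srf was at 201 CPM in control and 128 CPM in the combination, a log2 fold change of -0.65 (edgeR adjusted p 0.0128), and Elk4 fell by 0.55 (edgeR adjusted p 0.0473). Each of these changes was smaller than that of Egr1. Among 5 genes of the CREB and MSK kinase arm, which drives EGR genes through cyclic AMP response elements, 0 were called. At the adjusted p alone 1 of the 5, Crem, was higher with the combination. Its log2 fold changes were 0.80 against control (edgeR adjusted p 0.037) and 0.89 against cediranib (edgeR adjusted p 0.0292).

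Other genes of the transcriptional output of ERK were lower as well. Of 14 listed ERK output genes, 8 were called lower and 0 higher with trametinib, with a median log2 fold change of -2.24 beside 0.01 for all genes tested. With the combination 8 were lower, with a median of -1.55 beside 0.00. With either covariate 8 remained lower for trametinib, whereas for the combination 4 were lower with the epidermal covariate and 1, Etv4, with the endothelial covariate. Between the combination and trametinib 2 were higher, Dusp6, a phosphatase that inactivates ERK, and Etv5, an ETS factor, with a median of 0.82 beside -0.01. Neither was called with the epidermal covariate, without trametinib replicate 3 or without combination replicate 2, and Dusp6 alone was called without trametinib replicate 2, combination replicate 1 or combination replicate 3. The list is made of genes known for this response and was written with earlier results of these data known.

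Some known targets of EGR1 were lower with trametinib. Of 11 listed genes for growth factors, coagulation and proteolysis 9 were tested, of which 3 were called lower with trametinib and 3 with the combination, and 0 were higher in either. Their median log2 fold change was -1.27 with trametinib, -1.41 with the combination and -0.15 with cediranib, beside 0.01, 0.00 and -0.00 for all genes tested. With cediranib 0 were called. Pdgfa, a platelet-derived growth factor chain with a well studied EGR1 site, was at 5.45, 8.41 and 10.4 CPM in control, 2.00, 3.61 and 1.59 CPM with trametinib, and 2.32, 2.18 and 3.62 CPM with the combination. Both treated groups were below all control tumors. Its log2 fold changes were -1.77 and -1.57 (edgeR adjusted p 0.0119 and 0.0172).

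Plaur, the urokinase receptor, was called in both groups as well, with log2 fold changes of -2.20 and -1.90 (edgeR adjusted p 0.0182 and 0.0259), at low mean levels, the highest treated mean being 0.958 CPM. Flt1, the VEGF receptor VEGFR1, was called with trametinib at -1.82 (edgeR adjusted p 0.00946) and is also 1 of the 12 endothelial genes above. With the combination Flt1 had -1.41 (edgeR adjusted p 0.0248) and missed the call by its size alone. Pdgfb, the other platelet-derived growth factor chain, was called with the combination. With trametinib it had -1.33 (edgeR adjusted p 0.0407) and missed the call by its size alone, without a called difference between the treated groups. It was at 5.54, 11.3 and 12.1 CPM in control and 1.51, 1.18 and 2.04 CPM with the combination, a log2 fold change of -2.60 (edgeR adjusted p 0.00237). Between combination and trametinib 0 of the 9 were called, with a median of 0.05, where Egr1 itself differed by 1.26.

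The rest of the growth list was mixed. Tgfb1 had log2 fold changes of -1.27 and -1.22 with trametinib and the combination, under the size needed for a call. Vegfa, at 352 CPM in control, had -0.30 and 0.03, and neither Fgf2 nor Plau passed. These counts varied with the tumors left out and with the covariate used. Neither score overlapped between control tumors and those given trametinib or the combination, and Flt1 is itself part of the endothelial score. Whether endothelial genes account for calls lost with that score was therefore not tested. With the endothelial covariate 0 of the 9 were called in either comparison, with the epidermal covariate 4 were called with trametinib and 0 with the combination, and leaving out 1 tumor at a time gave 1 (without trametinib replicate 3) to 4 (without control replicate 1) for trametinib and 1 (without control replicate 2, control replicate 3 or combination replicate 2) to 4 (without combination replicate 3) for the combination.

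**Figure D5:**
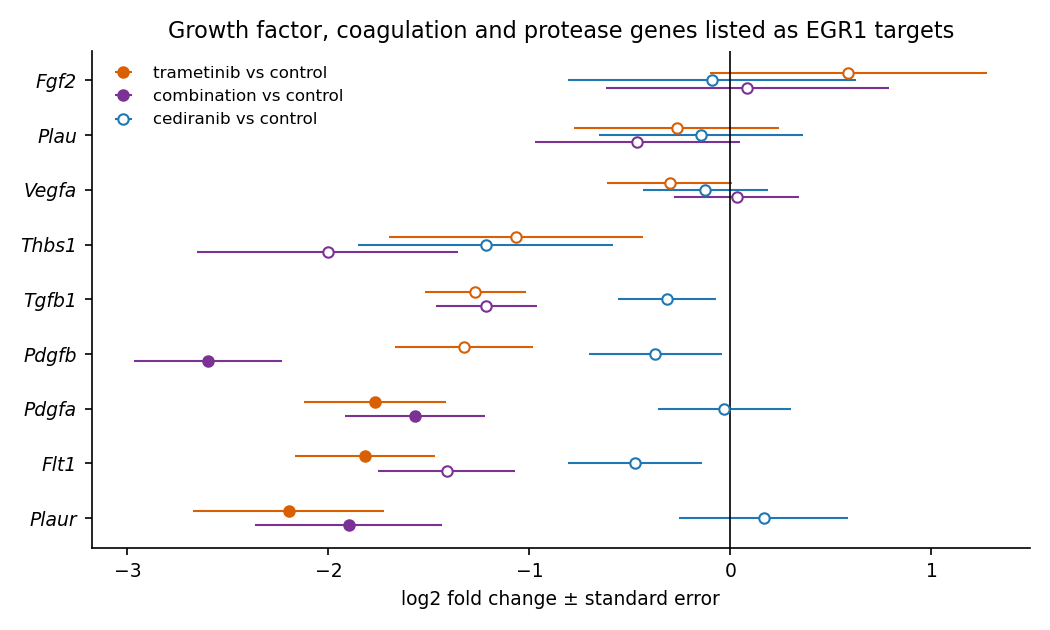
Log2 fold changes against control, with standard errors, of the 9 tested growth factor, coagulation and protease genes listed as EGR1 targets; filled points are called. The called points all lie left of zero and belong to Pdgfa, Plaur, Flt1 and Pdgfb, and no cediranib point is filled.

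A list of 11 EGR1 targets for adhesion, matrix and growth arrest gave no calls. Of its 7 tested genes 0 were called in any comparison, and the median log2 fold change was -0.04 with trametinib and -0.24 with the combination. Cd44, a hyaluronan receptor, had -0.72 with trametinib (edgeR adjusted p 0.0257).

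Targets of EGR2 and EGR3 gave few calls. Of 9 myelin and Schwann cell genes 4 were tested and 0 called. The sum of the 9 was 30.9 to 38.8 CPM in control and 45.8 to 51.5 CPM with trametinib, in which Egr2 was 10.7-fold lower, and the Schwann markers Sox10 and S100b were too low to be tested. Of 9 immune targets 8 were tested. Id3, an inhibitor of basic helix-loop-helix factors, was called higher with trametinib than with cediranib, with a log2 fold change of 2.09 (edgeR adjusted p 0.00954), at 27.7, 33.8 and 15.2 CPM against 4.80, 7.76 and 5.36 CPM. Rgs4, a regulator of G protein signaling, was called lower with the combination than with control (edgeR adjusted p 0.0181), at 1.11, 2.84 and 5.46 CPM in control and with 1 count in the 3 combination tumors together, so that no fold is given.

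For the histone deacetylase complex through which NAB proteins act, 9 of 9 listed genes were tested and 0 were called in any comparison. Their median log2 fold change was 0.08 with trametinib and -0.13 with the combination. Mta2 had the only adjusted p under 0.05 against control, with a log2 fold change of -0.36 in the combination (edgeR adjusted p 0.0382). Of 4 zinc finger genes whose products bind GC-rich sites like those of EGR proteins, Wt1, Sp1, Sp3 and Klf10, 0 were called.

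Among all genes tested, the patterns most like each member over the 12 tumors were ranked by the Pearson r of log2 CPM, which mostly follows the difference between tumors with and without trametinib. For Egr1 they were Arap3 (0.983), a GTPase-activating protein of endothelium, Dusp5 (0.977), a nuclear ERK phosphatase, and Hhex (0.975), a homeobox factor. Arap3 averaged 142 CPM in control, 41.7 CPM with trametinib, 134 CPM with cediranib and 61.5 CPM with the combination. The most opposite were Frs2 (-0.966), an adaptor of FGF receptors, Vipas39 (-0.962) and Crabp2 (-0.961), a retinoic acid binding protein whose mean was 1.57 CPM in control and 56.5 CPM with trametinib.

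For Egr2 the nearest were Ptk2b (0.958), Spns2 (0.956) and Dusp5 (0.946). For Egr3 they were Bcl6b (0.968), Cd47 (0.951) and Slc20a1 (0.946). Nab1 had no close partner, with a highest r of 0.834 for Adamts14, then 0.832 for Dennd2c and 0.828 for Syngr2, and after Gm16229 those of Nab2 were Slc35b2 (0.942) and St6galnac6 (0.923). Over the 12 tumors Egr1 had an r of 0.933 with Egr2 and 0.865 with Egr3. After the group means were removed these were -0.12 and -0.27, and 0.06 for Egr2 with Egr3, so the likeness over all tumors follows treatment.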

How the data were processed

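RNA sequencing counts of 12 SVR tumors were analysed, 3 per treatment, grouped by title and treatment label. The authors aligned reads to GRCm38 with STAR 2.7.1a and the deposited values are raw counts per gene from featureCounts 1.6.0, the reads having been written to FASTQ by bcl2fastq 1.8.4. The annotation release and strand setting (not given in the sources used here) are unknown. Of 54232 gene identifiers, 54079 were found in GENCODE M21, the source of overlaps, and 96 names stood for several identifiers. Totals were 9478865 to 11666094 counts.

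Counts were scaled by TMM (factors 0.908 to 1.10), filtered with filterByExpr (minimum count 10, minimum total 15) and tested with glmQLFit and glmQLFTest of edgeR 4.0.16 (R 4.3.3), all 12 libraries in 1 fit. Benjamini-Hochberg adjustment covered all genes tested. Standard errors are the log2 fold change over the square root of F, and a prior count of 2 was set for log2 CPM. Egr4, below the filter, was tested on log2(CPM + 0.5) with scipy 1.17.1. Simulated data were fitted with only the 2 groups compared, which does not test the fit of all 12 libraries. In them the share of false calls stayed below the adjusted p threshold for trametinib against control and exceeded it for the combination against trametinib. Alternatives were other scaling, filters, tests (DESeq2 1.42.0), samples, a replicate block, an epidermal score of 15 genes, and leaving out each tumor. An endothelial score and the omission of 3 libraries were chosen after seeing the data. That omission left cediranib replicate 2 alone in its group.

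The members, gene lists and rules were chosen with earlier results of these data known. The genes named singly are the 6 members, list genes called in a comparison between groups (at most 3 per list and comparison, by adjusted p), and the 3 genes most like each member, with the 3 most opposite for Egr1. Dusp6, Etv5 and other list genes given as examples were named after their values were seen. No list was tested as a set. Where tumors of different groups are said not to overlap, the share of all genes that do the same is not given. Some genes of the EGR target lists are not reported here, and the counts given are without them.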

Additional observations from a re-analysis of the deposited data

How the results depend on the processing

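Over 35 log2 fold changes of members, 655 values were recomputed, and 599 kept their direction and side of the threshold. Of 131 recomputed counts of called members 102 were equal to the count reported and 29 differed, of which 20 went from 3 to 2, each time through Egr3. Egr1 kept its 4 calls in all 18 alternatives of each comparison, with log2 fold changes of -4.77 to -4.32 for trametinib and -3.33 to -2.94 for the combination against control. With the epidermal or the endothelial covariate the combination had 1 member called against control, and with the endothelial covariate it had 1 against cediranib. The count against cediranib also differed without control replicate 1 and cediranib replicates 1 and 3, a fit with 1 cediranib tumor. Against trametinib the combination had 1 with no minimum fold change, and 0 to 1 when single tumors were left out, the 1 without trametinib replicate 3. The interaction had 1 with no low-count filter, by the likelihood ratio test and by DESeq2. In each case the 1 member was Egr1, and the cause was not tested.

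Small differences changed sign. Without the 3 libraries named above, cediranib replicate 2 was alone in its group, so those values rest on that tumor for cediranib. For cediranib against control, Egr3 had -0.16 with either covariate and -0.49 without the 3 libraries, and -0.45 to 0.55 with single tumors left out. Nab1 had 0.00301 with the epidermal covariate, 0.15 without the 3 libraries, and -0.11 to 0.017 with single tumors left out. For the combination, Nab1 had -0.31 against control and -0.19 against cediranib with the endothelial covariate, and -0.046 against cediranib without the 3 libraries, with ranges of -0.12 to 0.21 and -0.079 to 0.26 for single tumors left out. Nab2 against trametinib had -0.029 with the epidermal and -0.041 with the endothelial covariate, and -0.072 to 0.14 for single tumors left out.

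The replicate numbers are not stated to mark shared animals or days, and over 18 pairs of tumors with the same number the correlation of their deviations ran from -0.22 to 0.36, over 0.1 in 3. With a replicate block the Egr3 calls of the combination were lost against control (edgeR adjusted p 0.0714) and cediranib (0.0673), and Nab2 had -0.00218 in the combination against trametinib. Scaling by library totals alone moved the median of all genes by 0.13 for the combination against control, and there Egr3 had an edgeR adjusted p of 0.0502. With 3 tumors in each group the 95% intervals of Egr3 span about 2 on the log2 scale.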
